A study of Mus musculus with 6 samples.

Results

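Imprinted genes were followed in neurons sorted from the ventromedial hypothalamus (VMH) at postnatal day 10 in mice. Of 10 listed genes, 9 had a row among the 21926 genes of the count tables: Ndn, Magel2, Snrpn, Peg3, Dlk1, Nnat, Nap1l5, Gnas and Impact. Meg3 was not analysed here. Single cells came from 3 male and 3 female mice, all of genotype Ai14f/+;Sf1-Cre, and each mouse filled 1 plate of 96 wells. Mouse and plate therefore cannot be told apart, and every difference between mice below is also a difference between plates. The cells were sorted by fluorescence: Ai14 is a Cre-dependent red reporter, and Sf1-Cre switches it on in cells of the Nr5a1 (SF-1) lineage, so the sort followed the history of the driver and not its current activity. Of 576 wells, 530 held at least 500 genes with a count and under 25% of counts in mitochondrial genes. They were 93, 84 and 92 wells of males 1, 2 and 3, and 88, 87 and 86 wells of females 1, 2 and 3. By its title the series concerns estrogen receptor alpha and energy expenditure that differs by sex. The members were therefore compared between the sexes as well as between wells with and without a count of the marker genes Tac1, Rprm, Pdyn, Sst and Gad1.

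The kept wells held 535469 to 783270 counts per male and 185654 to 591768 counts per female, and the median per well was lowest for female 2, at 2097 counts. Summed neuron markers reached 9530 to 10690 CPM in males and 8514 to 10567 CPM in females, where CPM are counts scaled to a total of 1000000 per mouse. VMH markers such as Nr5a1 and Fezf1 summed to 781 to 1127 CPM in males and 624.8 to 1210 CPM in females. Arcuate markers such as Pomc and Agrp were present too, at 465 to 1089 CPM in males and 81.6 to 1389 CPM in females. These are sums over the wells of a mouse, and whether they came from cells other than VMH neurons was not tested. Glia and vessel markers summed to 67.2 to 77.5 CPM in males, against 110 to 342 CPM in females. Of the 12 wells in which neuron markers did not outweigh them, ties included, 10 came from female 1. The 7 Y-linked genes held 28 to 67 counts per male and 0 to 1 count per female, and 0 wells held the same counts as a well of another plate.

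An imprinted gene is read mainly from the copy inherited from 1 parent, while the copy from the other parent is largely silent. The difference between the copies goes back to DNA methylation laid down in the germ line, which need not lie at the silent gene itself. Most of the genes followed here are expressed from the paternal copy in mouse, and several are abundant in the hypothalamus, where the Prader-Willi region genes and Gnas are known for their part in feeding, growth and energy balance. Necdin (Ndn) and Magel2 belong to the MAGE protein family and lie next to each other on chromosome 7. Ndn was annotated at chr7:62346569-62350262 and Magel2 at chr7:62377010-62381640 in GENCODE M21 on GRCm38, with 26747 bases between them. A non-coding gene on the other strand, Gm32061, spans both, but its annotated exons share 0 bases with theirs. Gm32061 was not analysed here, and since it is unknown whether counting used the strand, unspliced reads of it could not be told from those of Ndn.

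Promoter windows of 250 bases before to 50 bases after the start were taken from RefSeq (GRCm38.p6). They are given for the neighbours Ndn and Magel2 and for Nnat, which had a call beside 3 of the 5 markers. Magel2, with 129 counts in all kept wells, was too low for its distribution across wells to be compared with that of Ndn. The RefSeq start of Ndn behind its window lies 1708 bases downstream of the GENCODE start given above, inside the GENCODE gene. Capitals mark CGCATGCGC, a run within the consensus of the transcription factor NRF1, or its reverse complement GCGCATGCG. The run was chosen after the sequences were read, was searched on both strands, and its overlapping matches were joined.
Ndn, plus strand, chr7:62348027-62348326: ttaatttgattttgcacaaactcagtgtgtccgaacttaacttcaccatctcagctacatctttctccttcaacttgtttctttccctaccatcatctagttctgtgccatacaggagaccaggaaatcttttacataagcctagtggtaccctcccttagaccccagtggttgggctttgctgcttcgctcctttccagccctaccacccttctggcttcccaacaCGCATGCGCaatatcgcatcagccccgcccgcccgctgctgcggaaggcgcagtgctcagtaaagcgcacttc
Magel2, plus strand, chr7:62376729-62377028: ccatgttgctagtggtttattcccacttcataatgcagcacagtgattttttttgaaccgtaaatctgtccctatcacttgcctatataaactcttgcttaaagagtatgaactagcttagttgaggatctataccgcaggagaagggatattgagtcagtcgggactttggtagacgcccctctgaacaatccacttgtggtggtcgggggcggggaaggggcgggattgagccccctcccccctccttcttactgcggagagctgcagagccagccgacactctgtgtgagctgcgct
Nnat, plus strand, chr2:157559828-157560127: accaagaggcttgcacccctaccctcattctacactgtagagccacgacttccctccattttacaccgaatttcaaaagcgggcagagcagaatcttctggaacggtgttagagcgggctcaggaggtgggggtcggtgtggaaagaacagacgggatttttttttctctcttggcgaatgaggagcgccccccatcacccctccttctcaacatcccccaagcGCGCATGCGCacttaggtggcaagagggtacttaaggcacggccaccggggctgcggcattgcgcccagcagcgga
The run was present in the windows of Ndn and Nnat and in none of the other member windows searched. That is 2 of 16 windows of 9 genes, Meg3 among them. Impact was left out of this search. Of all 32851 windows of that length, 575 held the run (1.75%). The Ndn window held 11 CG dinucleotides, the Magel2 window 10 and the Nnat window 17, against a median of 7 over all windows.

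Ndn separated the sexes by the share of wells in which it was counted. A count of Ndn was present in 93 of 93, 84 of 84 and 92 of 92 kept wells of the males, against 34 of 88, 44 of 87 and 47 of 86 kept wells of the females. The share was thus 100% in every male, with exact 95% binomial intervals that began at 95.7% or above, and 38.6%, 50.6% and 54.7% in the females, with intervals from 28.4% to 65.4%. Intervals here cover counting error only. No male well was without Ndn and about as many female wells lacked it as held it. The two-sided exact permutation test over the 20 assignments of 6 mice gave p = 0.1 for the share, the smallest value that 3 against 3 mice allow, and it gave the same for each of 6 measures of Ndn (0.1 after Benjamini-Hochberg adjustment). Of all genes in the tables, Ndn had the largest gap between the lowest male share and the highest female share, at 45.8 percentage points after each well was thinned to 2000 counts. The next gene in that direction, Gm1673, had a gap of 11.5 points, and the largest gap in the other direction, for Pdcd10, was 10.6 points.

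Depth was equalised by thinning each well at random to 2000 counts, which left out 55 shallower wells, 39 of them from female 2. At that depth the share was again 100% in each male, against 39.5%, 54.2% and 51.2% in females 1, 2 and 3. At 1000 counts it averaged 93.5% ± 4.27 in males and 41.1% ± 2.96 in females (SD, n = 3 each). The thinned wells of the males held 1 to 16, 1 to 18 and 1 to 16 Ndn counts. Those of the females held 0 to 12, 0 to 12 and 0 to 20, and 26.3%, 43.8% and 41.9% of them held 3 or more. The female wells at 0 therefore stood beside wells with Ndn counts in the range of the males. In pooled thinned wells Ndn was at 0 in 0% of 265 male wells and in 52.4% of 210 female wells. The 123 genes with a mean within 1.5-fold of Ndn in the females were at 0 in a median of 13.3% of the female wells, and the highest of them, Tac1, in 64.8%.

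**Figure D1:**
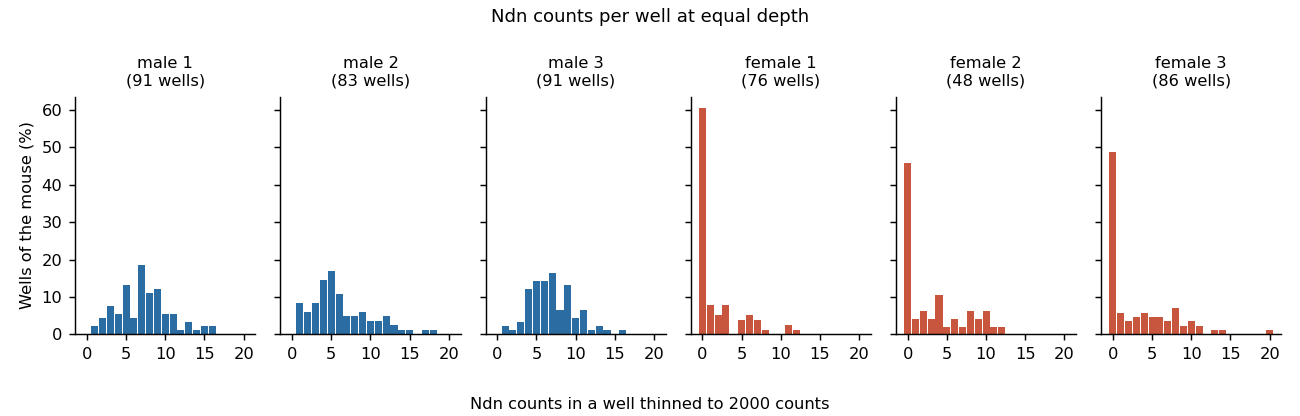
Percentage of the wells of each mouse (vertical axis) by the number of Ndn counts in a well thinned to 2000 counts (horizontal axis), males in blue and females in red. No bar stands at 0 in the 3 males, whereas 60.5%, 45.8% and 48.8% of the wells of females 1, 2 and 3 lie at 0.

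Wells with Ndn were deeper than those without it in females 1 and 2 and shallower in female 3. Median counts per well were 5257, 2212.5 and 6191 in wells with Ndn of females 1, 2 and 3, against 5025.5, 1786 and 6912 in wells without it. Wells of both kinds were present in all 8 rows and all 12 columns of each female plate. Neuron markers reached 9042, 9370 and 10761 CPM in the wells with Ndn of females 1, 2 and 3, against 8148, 8743 and 10339 CPM in those without. Glia and vessel markers reached 144, 167 and 110 CPM in the wells with Ndn, against 480, 119 and 110 CPM in those without. In the 518 wells whose neuron markers outweighed the glia and vessel markers, the share with Ndn was 100% in each male and 49.2% ± 6.29 in the females (SD, n = 3). The other 12 wells held Ndn in 3 cases (25%, exact 95% interval 5.49% to 57.2%), at a median depth of 938.5 counts against 6013.5 counts in the neuronal wells.

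Both the share of wells and the level within them were lower in females. Over all kept wells, Ndn stood at 3590, 3053 and 3651 CPM in males 1, 2 and 3, against 900, 1637 and 1435 CPM in females 1, 2 and 3. The groups did not overlap, as for 1 of 8 tested members and 8.48% of the 6794 tested genes. Within the wells that held Ndn, the level was 3431 ± 329 CPM in males and 2615 ± 394 CPM in females (SD, n = 3 each), with the same exact p = 0.1; wells chosen for a count overstate the level, and this choice removed wells in the females only. In edgeR's quasi-likelihood test on counts summed per mouse, the log2 fold change of Ndn, male over female, was 1.39 (SE 0.245, adjusted p = 0.346). That fit called 0 genes (0%), with 167 at an unadjusted p under 0.05, while DESeq2 called 4, of which Ndn was 1 (log2 fold change 1.39, adjusted p = 0.0104). The adjusted p of Ndn ranged from 8.92e-07, without the filter on low counts, to 0.899 over 13 alternatives, and its fold change from 1.18 to 1.59. None of the other 7 tested members passed, with log2 fold changes from -0.31 for Peg3 to 0.30 for Snrpn and an adjusted p of 0.999 each. The median over the 8 was 0.12, against -0.03 over all tested genes.

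**Figure D2:**
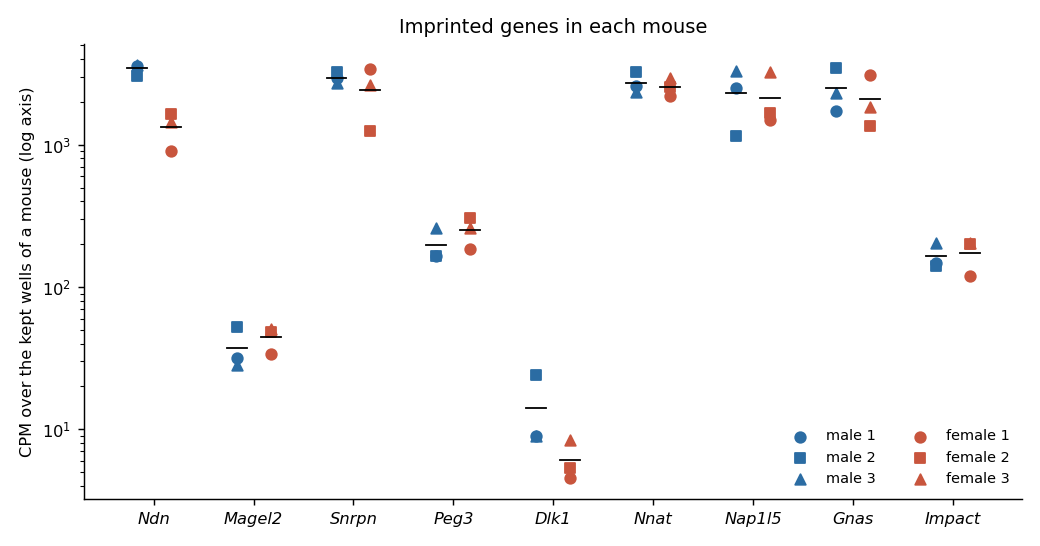
CPM over the kept wells of each mouse (vertical axis, log scale) for the 9 genes, males in blue left of females in red, with black bars at the mean of each sex. Among the tested members only Ndn has male and female points that do not overlap, as did 8.48% of the 6794 tested genes. The points of Dlk1, too low to be tested, do not overlap either. Heights of different genes are not comparable, since CPM are not divided by transcript length.

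No other tested member differed past the threshold between female wells with and without Ndn. This comparison of wells with and without Ndn inside the 3 females was added after the pattern was seen. Magel2 stood at 40.1 ± 12.8 CPM in female wells with Ndn and 48.6 ± 10.7 CPM in those without (SD, n = 3), from 26 and 28 counts. Snrpn stood at 2360 ± 1026 CPM with Ndn and 2475 ± 1158 CPM without. Mkrn3, a further paternally expressed gene of the Prader-Willi region, stood at 40.1 ± 18.8 and 30.5 ± 13.3 CPM, and Ube3a at 98.8 ± 31.3 and 108 ± 12.5 CPM. In the fit with mouse as a block, none of the 7 tested members passed, while 2 of 4637 genes did (0.0431%; DESeq2 called 1). Both, named after their values were seen, were lower with Ndn and are known from glia: Apoe, at 471, 9.81 and 9.41 CPM with Ndn in females 1, 2 and 3, against 1362, 418 and 33.0 CPM without (log2 fold change -1.79, SE 0.211, adjusted p = 4.70e-06), and Fabp7, at 15.4 ± 15.8 against 144 ± 119 CPM (-2.90, SE 0.436, adjusted p = 0.000375). In neuronal wells alone Apoe was still lower (-2.15, adjusted p = 0.0296) and Fabp7 was not tested. Without female 3 neither passed (0.661 and 0.531), without female 1 neither was tested, and without female 2 only Apoe was tested, and it passed. The marker Sst was higher with Ndn but did not pass in the main fit (1.33, SE 0.303, adjusted p = 0.135). In neuronal wells it passed (1.34, 0.0241), as it did without female 1 and without female 2. Sst also passed with at least 1000 genes per well, with no filter and with at least 2 Ndn counts. It did not pass under DESeq2, with RLE scaling (0.230), on thinned wells (0.832), with no mouse block or without female 3 (0.31, 0.999). Fabp7 counts without Ndn were 55, 18 and 2 in females 1, 2 and 3, in 24.1%, 2.33% and 5.13% of those wells. For Apoe they were 355, 35 and 9, in 35.2%, 6.98% and 17.9%. The part of glial RNA in the share of wells with Ndn was not tested. The members' log2 fold changes, with Ndn over without, ran from -0.16 for Peg3 (SE 0.184) to 0.02 for Nnat (SE 0.0649), each with an adjusted p of 0.998. For Magel2 the SE of 0.404 leaves room for a sizeable difference.

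The share of female wells with Ndn was highest beside Sst and Rprm. It averaged 64.7% ± 20.9 in Sst-detected wells and 44.8% ± 6.11 in Sst-undetected wells of the females, and 57.6% ± 6.85 in Rprm-detected and 43.2% ± 9.01 in Rprm-undetected wells (SD, n = 3). Sst encodes somatostatin and Rprm the cell-cycle inhibitor reprimo. The share was higher on the detected side in each of the 3 females for both markers, although the Sst-detected groups held only 14, 15 and 13 wells. It averaged 47.2% in Tac1-detected and 47.7% in Tac1-undetected wells, 46.0% and 49.2% for Pdyn, and 54.5% and 47.3% for Gad1, where the detected groups of the females held 4, 2 and 11 wells. Tac1 encodes the precursor of substance P, Pdyn that of dynorphin, and Gad1 an enzyme that makes GABA. Female wells with none of the 5 markers held Ndn in 43.3% ± 9.18 of cases. All male groups stood at 100%. The marker groups overlap, since 429 wells held at least 1 marker and 236 at least 2, and the detected wells were deeper in most mice.

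**Figure D3:**
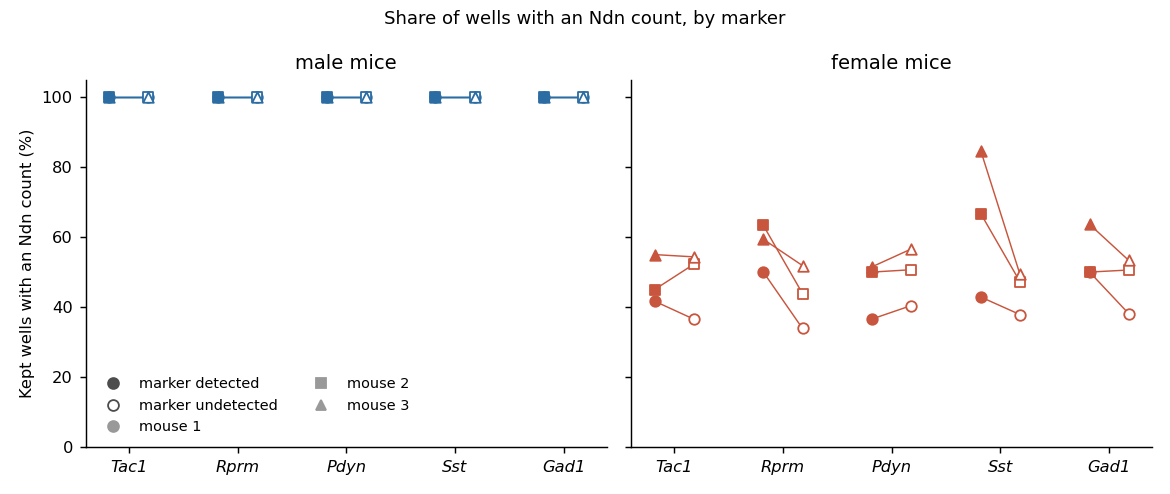
Percentage of kept wells with an Ndn count (vertical axis) in wells with (filled) and without (open) a count of each marker (horizontal axis), 1 symbol per mouse, males in the left panel and females in the right. The males lie at 100% throughout, and in the females the lines fall from the detected to the undetected side in all 3 mice for Rprm and Sst.

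The level of Ndn followed Rprm differently in the sexes. In Rprm-detected against undetected wells Ndn stood at 3492 against 3651, 3032 against 3069 and 3524 against 3773 CPM in males 1, 2 and 3. It stood at 1206 against 748, 2057 against 1389 and 1681 against 1258 CPM in females 1, 2 and 3. All 3 males were slightly lower with Rprm and all 3 females higher. The interaction of sex and Rprm detection, a change in the male over female fold, was -0.62 (SE 0.112, adjusted p = 0.000645) in edgeR's quasi-likelihood test, with 4 of 6204 genes called (0.0645%), Ndn 1 of them and the other 7 tested members not. It was lost under DESeq2 (adjusted p = 0.292), on wells thinned to 2000 counts (0.328) and with at least 2 Rprm counts (1.00), and passed in the other 10 of 13 alternatives. For Tac1, Pdyn, Sst and Gad1 the interaction of Ndn did not pass, with values of 0.14, 0.23, -0.44 and -0.50. Those fits called 1 of 5919, 2 of 5634, 5 of 4411 and 8 of 6443 genes (0.0169%, 0.0355%, 0.113% and 0.124%) and no member. The Gad1 value came from 2 males and 1 female, because fits on Gad1 took only mice with at least 5 Gad1-detected wells. On simulated counts the fit of the interaction of sex and Tac1 detection recovered 33 of 95 changes of log2 size 1. Interactions below that size could thus be missed.

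Within marker-detected wells, the sex difference of Ndn passed in 1 of 5 groups, that of Pdyn. There Ndn stood at 3567, 2792 and 3683 CPM in males 1, 2 and 3, against 882, 1432 and 1220 CPM in females 1, 2 and 3. The log2 fold change was 1.59 (SE 0.212, adjusted p = 0.0383; 2 of 4109 genes called, 0.0487%), and it passed in 4 of 14 alternatives. Leaving out any 1 mouse ended the call, with adjusted p from 0.0731 to 0.258. The fold changes in Tac1-, Rprm-, Sst- and Gad1-detected wells were 1.47 (adjusted p = 0.218), 1.04 (1.00), 1.01 (0.999) and 0.92 (0.608). Those fits called 0, 0, 0 and 17 genes (0%, 0%, 0% and 1.02%) and no member. The Gad1 fit set 2 males against 1 female, which was assumed to vary as the males did. Ndn became called in Tac1-detected wells under DESeq2 (0.00143) and without female 2 (0.0385), and in Tac1-, Rprm- and Sst-detected wells with no filter on low counts. At an unadjusted p under 0.05 the first 3 of these held 92, 92 and 50 genes, and DESeq2 called 2, 2 and 0.

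Nnat was called beside 3 of the 5 markers, more than any other member. It encodes neuronatin, a small membrane protein of the endoplasmic reticulum that is expressed from the paternal copy, and lies inside Blcap on the other strand (chr2:157560078-157562522). Whether counting used the strand was not given in the sources used here, so unspliced reads of the pair may not be separated, although their annotated exons share 0 bases; Blcap itself stood at 386 ± 76.9 CPM (SD, n = 6). Nnat was counted in 97.5% of the kept wells and at 2731 ± 477 CPM in males and 2551 ± 369 CPM in females (SD, n = 3 each). Its coefficient of variation between mice was 14.9%, against a median of 18.9% over the 35 genes within 1.5-fold of its level. Between thinned wells of a mouse, its variance was 2.38 times its mean (median of 6 mice), above 97.1% of the genes of like level, whose median ratio was 1.23.

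Nnat was higher in Tac1-detected wells. It stood at 3170, 3558 and 2740 CPM in Tac1-detected wells of males 1, 2 and 3, against 2133, 3061 and 2126 CPM in their undetected wells. In the females it stood at 2297, 2839 and 3238 CPM with Tac1, against 2080, 2445 and 2538 CPM without. All 6 mice were higher with Tac1, with a log2 fold change of 0.33 (SE 0.0482, adjusted p = 1.23e-06) in the fit with mouse as a block. That fit called 53 of 5919 genes (0.895%), and the call of Nnat held in 13 of 14 alternatives, the exception being the fit without the mouse block.

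Nnat was lower in Pdyn-detected wells, again in 6 of 6 mice. It stood at 2271, 2524 and 2220 CPM with Pdyn in males 1, 2 and 3, against 2969, 3937 and 2607 CPM without. In females 1, 2 and 3 it stood at 2056, 2523 and 2727 CPM with Pdyn, against 2337, 2552 and 3058 CPM without. The log2 fold change was -0.31 (SE 0.0671, adjusted p = 0.00330; 87 of 5634 genes called, 1.54%). It was lost without male 2, whose difference was the largest (-0.24, adjusted p = 0.139), without the filter on low counts (0.0710) and with no mouse block (1.00). Read by both markers, Nnat averaged 3226 ± 564 CPM in wells with Tac1 and no Pdyn, 2637 ± 622 CPM in wells with neither, 2383 ± 797 CPM in wells with both and 2215 ± 368 CPM in wells with Pdyn and no Tac1 (SD, n = 6). The smallest of these groups in a mouse held 14, 23, 1 and 11 wells. Without female 2, whose only well with both held 1 Nnat count, the averages were 3295, 2682, 2680 and 2140 CPM, nearly equal in wells with neither and with both.

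Nnat was also higher in Rprm-detected wells, at 2965 ± 356 CPM, than in undetected wells, at 2442 ± 430 CPM (SD, n = 6), in 6 of 6 mice. The log2 fold change was 0.28 (SE 0.0540, adjusted p = 0.00156; 10 of 6204 genes called, 0.161%). The call was lost under DESeq2 (0.171), on thinned wells (0.483), with at least 2 Rprm counts (0.0586), with no mouse block (1.00) and without female 1 (0.0887). Beside Sst the log2 fold change of Nnat was 0.02 (adjusted p = 0.992; 15 of 4411 genes called, 0.340%). Its male mice stood lower with Sst, at -0.09, -0.26 and -0.15, and its female mice higher, at 0.43, 0.02 and 0.27, but the interaction did not pass (-0.42, SE 0.122, adjusted p = 0.260). It passed with RLE scaling (-0.44, 0.0409) and without female 2 (-0.51, 0.0129). Beside Gad1, in 3 mice, it was -0.42 (SE 0.126, adjusted p = 0.101; 44 of 5240 genes called, 0.840%), and it was called without the filter on low counts (-0.62, 0.00318).

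**Figure D4:**
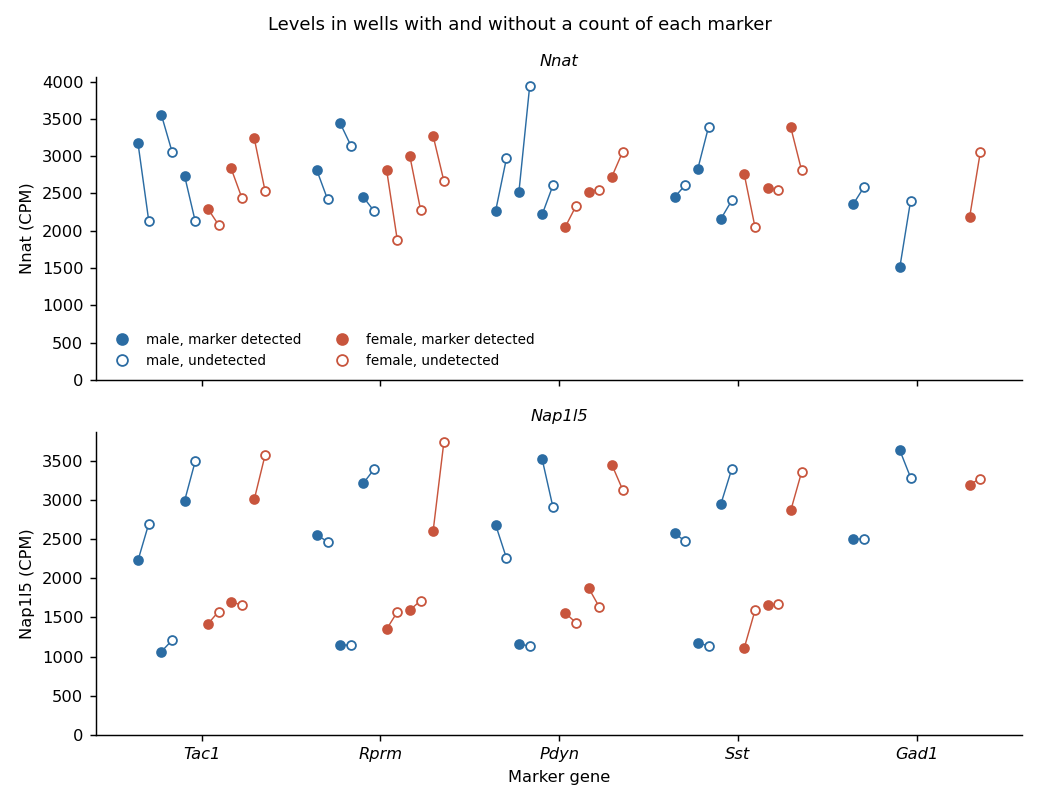
CPM of Nnat (top) and Nap1l5 (bottom) in wells with (filled) and without (open) a count of each marker (horizontal axis), with a line per mouse, males in blue left of females in red; for Gad1 only the 3 mice in the fit are drawn. Nnat is higher with Tac1 and with Rprm and lower with Pdyn in all 6 mice, and Nap1l5 is lower with Tac1 in 5 of 6.

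Nap1l5 was lower in Tac1-detected wells and differed widely between mice, each of which was also a plate. It encodes a member of the nucleosome assembly protein family, is expressed from the paternal copy and lies inside Herc3 on the other strand (chr6:58905233-58907076), where their annotated exons share 0 bases. Over all kept wells it stood at 2501, 1147 and 3307 CPM in males 1, 2 and 3, against 1498, 1670 and 3263 CPM in females 1, 2 and 3. Male 3 was 2.88-fold above male 2, and male 3 and female 3 stood together at the top, so that the spread lay within each sex. The coefficient of variation between mice was 41.7%, above 95.7% of the 47 genes within 1.5-fold of its level. In Tac1-detected against undetected wells it averaged 2068 ± 817 against 2368 ± 1031 CPM (SD, n = 6), and 5 of 6 mice were lower, female 2 being the exception. The log2 fold change was -0.21 (SE 0.0487, adjusted p = 0.00958). The call was lost under DESeq2 (0.579), on thinned wells (0.859), with at least 2 Tac1 counts (0.207), with no mouse block (1.00), without male 1 (0.0643) and without male 3 (0.137). In Pdyn-detected wells all 6 mice were higher, at a log2 fold change of 0.16 that did not pass (adjusted p = 0.335).

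Gnas and Snrpn, counted in 97.9% and 97.0% of the kept wells, varied between mice more than with the markers. Gnas encodes the stimulatory G protein alpha subunit and makes several transcripts with different imprints, which gene counts cannot tell apart. It stood at 1724, 3466 and 2299 CPM in males 1, 2 and 3, against 3089, 1347 and 1842 CPM in females 1, 2 and 3, so the highest and the lowest mice came from different sexes and the ranges overlapped. Its log2 fold changes beside the 5 markers lay between -0.01 and 0.18, and none passed. It was higher with Sst in 6 of 6 mice, at 2562 ± 1033 against 2226 ± 774 CPM. Snrpn encodes SmN, a core splicing protein, and shares its transcription unit with Snurf, which was listed at 0 in every kept well. Snrpn stood at 2934, 3223 and 2694 CPM in males 1, 2 and 3, against 3411, 1239 and 2618 CPM in females 1, 2 and 3. Female 2, the shallowest plate, was the lowest for both genes, and whether depth has a part in this was not tested. Across the wells of a mouse, Snrpn was the evenest of the members of its level: its variance was 1.01 times its mean, below all 39 genes within 1.5-fold of its level. It was higher in 6 of 6 mice both with Tac1 (0.14, adjusted p = 0.174) and with Pdyn (0.17, adjusted p = 0.225), without passing.

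Peg3, Impact and Magel2 had few counts per well and no call beside any marker. Peg3 encodes a zinc finger protein and Impact an inhibitor of the kinase GCN2. Peg3 stood at 198 ± 54.7 CPM in males and 250 ± 61.0 CPM in females, and Impact at 164 ± 35.5 and 175 ± 47.3 CPM (SD, n = 3 each). Magel2, which promotes ubiquitination on recycling endosomes, stood at 37.5 ± 12.9 CPM in males and 44.4 ± 9.07 CPM in females, from 129 counts in 119 wells. In thinned wells Magel2 was counted in 8.71% ± 0.976 of male and 9.93% ± 3.13 of female wells. Across the 5 marker fits, the log2 fold changes of Peg3 and Impact lay between -0.22 and 0.06. Those of Magel2 lay between -0.21 and 0.12 in the fits on Tac1, Rprm and Pdyn and stood at 0.72 (SE 0.590) for Gad1; it did not pass the low-count filter for Sst.

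Dlk1, a transmembrane protein of the Delta family expressed from the paternal copy, was near its counting limit. It held 7, 13 and 7 counts in males 1, 2 and 3, against 2, 1 and 5 counts in females 1, 2 and 3, in 26 wells in all. Its level did not overlap between males, at 8.94, 24.3 and 9.04 CPM, and females, at 4.53, 5.39 and 8.45 CPM, but it was too low to be tested. The nearest values, 8.94 and 8.45 CPM, rest on 7 and 5 counts. Of the 6794 genes tested between the sexes 8.48% did not overlap either, and no such share was computed for genes as low as Dlk1. Gad1-detected wells made up 35 of the 530 kept wells and held 10 of the 35 Dlk1 counts, in 5 wells (14.3%), all of them from males. Shares in Tac1-, Rprm-, Pdyn- and Sst-detected wells were 4.15%, 5.67%, 4.91% and 2.91%. Dlk1 passed the low-count filter only in the Gad1 fits, through the side on which it was high, and its log2 fold change there was 3.19 (SE 1.33, adjusted p = 0.446).

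Other genes listed as imprinted had 4 calls beside the markers. Of 50 such genes, 41 had a row, and 26 were tested between the sexes: 0 passed, with a median log2 fold change of -0.13, against -0.03 over all tested genes. Asb4, which encodes a ubiquitin ligase subunit, was higher in Gad1-detected wells, at 178, 317 and 88.5 CPM in males 1 and 3 and female 3, against 29.1, 17.7 and 53.8 CPM in undetected wells (log2 fold change 2.39, SE 0.414, adjusted p = 5.02e-06). It was lower in Tac1-detected wells, at 11.6 ± 9.82 against 51.8 ± 35.3 CPM in undetected wells (SD, n = 6; -2.002, SE 0.322, adjusted p = 1.09e-05). Ddc, which makes dopamine and serotonin from their precursors, was higher in Pdyn-detected wells, at 128 ± 19.8 against 79.9 ± 32.4 CPM (0.78, SE 0.176, adjusted p = 0.00613), in 6 of 6 mice. Calcr, the calcitonin receptor, was lower there (-1.57, SE 0.424, adjusted p = 0.0338), although 36 of its counts in undetected wells came from female 3 and female 1 was the reverse. With these, 1 of 23, 1 of 28 and 2 of 26 tested genes of the list passed beside Gad1, Tac1 and Pdyn, where 0.840%, 0.895% and 1.54% of all tested genes did, and 0 of 26 and 0 of 22 beside Rprm and Sst. Among the relatives of the members, none of the tested MAGE genes, G protein alpha subunits or Sm-ring proteins (Snrpn and Gnas included) passed beside a marker or between the sexes in all kept wells. Of the NAP1L family only Nap1l5 did, beside Tac1.

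Across single neurons thinned to one depth, pairs of members had low correlations, and the values depended on the thinning. Within-mouse Pearson correlations of log2(counts per 10000 + 1) over 475 wells thinned to 2000 counts were averaged over 6 mice, as a description. The 28 pairs of the 8 members counted in at least 20% of kept wells had a median r of -0.0021, against -0.0015 over all 8746653 pairs of 4183 genes counted as often. Their r ran from -0.12 for Peg3 with Snrpn to 0.088 for Gnas with Impact, where the middle 95% of all pairs lay between -0.088 and 0.097. Peg3 with Snrpn was negative in 5 of 6 mice. The neighbours Ndn and Magel2 had r = 0.012, from -0.22 to 0.13 in single mice. Within marker-detected wells r was taken otherwise, over wells pooled after each was centred on the mean of its mouse. For Tac1, Rprm, Pdyn, Sst and Gad1 the median r over the pairs was 0.0014, 0.0063, -0.00073, 0.00018 and 0.012, the last from 33 wells. Single pairs ran from -0.13 to 0.096 for Tac1, -0.16 to 0.17 for Rprm and -0.13 to 0.14 for Pdyn. They ran from -0.26 to 0.11 for Sst and from -0.39 to 0.42 for Gad1. Without thinning, wells of different depth were set together: the median r was 0.027 (0.015 over all pairs), and the highest were Nnat with Gnas at 0.26, Snrpn with Nap1l5 at 0.19 and Ndn with Nap1l5 at 0.18, where the middle 95% of all pairs lay between -0.078 and 0.12. At 1000 counts the median was -0.017 (-0.0033 over all pairs), Snrpn with Nap1l5 stood at 0.13, Nnat with Gnas at 0.13 and Peg3 with Snrpn at -0.030.

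**Figure D5:**
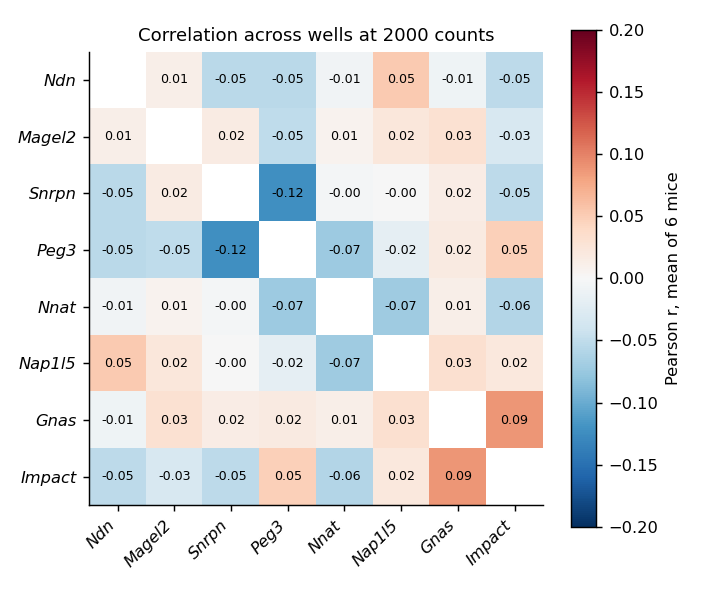
Pearson r across thinned wells, averaged over the 6 mice, for each pair of 8 members (rows and columns; blue negative, red positive). Values run from -0.12 to 0.088 and no block of the map stands out.

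The genes most like each member by the same measure, among 4049 other genes with a value in all 6 mice, had low r as well. For Nnat these were Nrgn (0.19), a neuronal calmodulin-binding protein, Tac1 (0.19) and mt-Nd1 (0.18), and the lowest of all was Pdyn (-0.20), negative in every mouse. For Ndn they were Inpp1 (0.18), Cpe (0.17) and Abhd16a (0.16), and for Magel2 Acsl6 (0.18), Hdlbp (0.17) and Leo1 (0.17). For Peg3 they were Trim44 (0.20), Pja2 (0.19) and Atp6v1a (0.19), and for Snrpn Puf60 (0.17), Fis1 (0.17) and Stmn3 (0.16). For Nap1l5 they were mt-Nd4 (0.23), Gpm6a (0.22) and Rac1 (0.22), for Gnas Gm16286 (0.16), Unc50 (0.15) and Tbcc (0.14), and for Impact Dpysl2 (0.17), Uck1 (0.16) and Ncam1 (0.15). The points share the library and the fixed total of each well.

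Wells in which neuron markers did not outweigh glia and vessel markers were few. Ties were counted among them, and their cell type was not tested. In these 12 wells Magel2, Peg3, Dlk1 and Impact had 0 counts. Those wells held only 11708 counts in all, in which the level of the neuronal wells would give 0.458, 2.53, 0.124 and 1.99 counts of these genes, so a lower level was not detectable at this depth. Nnat was counted in 4 of them, at 70 counts and 5979 CPM, against 2631 CPM in the 518 neuronal wells. Gnas was counted in 6, Snrpn in 4 and Nap1l5 in 3, at 15, 4 and 3 counts, where the neuronal level would give 27.2, 33.3 and 28.5. The neuronal level was pooled over the 6 mice, whereas most of the 12 wells came from female 1. Over its kept wells female 1 stood at 3089, 3411 and 1498 CPM of Gnas, Snrpn and Nap1l5, against a pooled 2325, 2845 and 2434 CPM. Differences between mice are thus mixed into these comparisons.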

How the data were processed

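Messenger RNA was measured in sorted single cells of 6 mice with the BD Precise whole transcriptome kit, per the labels' protocols. The deposited tables hold raw counts, as whole numbers for each gene in each well. HTSeq and the mm10 build were named in the submitters' processing notes. The aligner, the strand setting, the treatment of multiply matching reads and the unit counted (molecules or reads) were not given in the sources used here. Date-form symbols numbered 24 per table.

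The members and gene lists were chosen with earlier results of these data known. Wells were kept with at least 500 genes with a count and under 25% mitochondrial counts; 46 were left out, all for few genes. No doublet caller was run. Counts were summed per mouse, or per mouse and side of a marker (at least 1 count against none), and tested with edgeR 4.0.16 in R 4.3.3 (quasi-likelihood test, TMM, filterByExpr, Benjamini-Hochberg over all tested genes, threshold 0.05). Mouse was a block in marker fits, which took mice with at least 5 wells on both sides. CPM are counts over the summed total. Fold changes are male over female or detected over undetected. Every member was named in every comparison, and up to 4 genes per list that passed. The most alike genes were the 3 with the highest mean r. Thinning used seed 7, and wells were called neuronal where neuron markers outweighed glia and vessel markers. Alternatives were DESeq2 1.42.0, RLE scaling, no low-count filter, other well and depth limits, at least 2 marker counts, no mouse block, a replicate block and leaving out each mouse. The Ndn split of female wells and the Ndn share at 2000 counts were added after seeing the data. Fits were tested on simulated counts. The fit of sex in kept wells recovered 17 of 93 changes of log2 size 1 and 74 of 84 of size 2. In Pdyn-detected wells the fit of sex recovered 21 of 89 and 76 of 81. The Tac1 fit with mouse as a block recovered 75 of 92 and 89 of 89. The interaction of sex and Tac1 detection recovered 33 of 95 and 70 of 95. False calls numbered 3 to 10 per fit. Sex differences and interactions of log2 size 1 could thus often be missed. Positions are from GENCODE M21 and promoter windows from RefSeq.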

Additional observations from a re-analysis of the deposited data

Results flagged for a closer look

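The interaction of sex and Rprm detection for Ndn passed its test at a log2 value of -0.62, which says that the male over female fold was smaller in Rprm-detected than in Rprm-undetected wells. All 3 females were higher and all 3 males lower with Rprm. Of 32 groups of mouse ratios, 2 held a mouse far from the others, where chance gives about 1 in 20. For Magel2, the log2 ratio of Sst-detected over undetected wells was 1.30 in female 2, against -0.019 in the next mouse, from 3 counts in its Sst-detected wells. For Impact, the same ratio was 1.12 in female 1, against -0.13 in the next mouse, from 18 counts.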

How the results depend on the processing

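Most values of the members kept their direction and their side of the threshold: of 814 log2 fold changes under an alternative, 706 did. Of the rest, 28 were no longer called, 12 became called and 68 changed sign, among them no value that was called. For Ndn no alternative turned the sex difference. Female 2 was shallow and limits what its wells show, and 55 wells could not be thinned to 2000 counts. The causes of the changes below were not tested.

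Counts of genes moved more. The sex difference in kept wells had 0 calls, against 4 under DESeq2, 20 with no filter and 0 to 3 without 1 mouse. The Tac1 comparison had 53, against 9 under DESeq2, 14 on thinned wells, 1 with no mouse block and 28 to 61 without 1 mouse. The Rprm comparison had 10, against 3 under DESeq2, 27 with no filter, 6 in neuronal wells, 2 on thinned wells, 5 with at least 2 marker counts, 1 with no mouse block and 7 to 15 without 1 mouse. The Pdyn comparison had 87, against 28 under DESeq2, 14 on thinned wells, 2 with no mouse block and 50 to 89 without 1 mouse. The Sst comparison had 15, against 2 under DESeq2, 8 on thinned wells, 2 with no mouse block and 8 to 16 without 1 mouse. The Gad1 comparison had 44, against 4 under DESeq2, 0 on thinned wells, 24 with at least 2 counts, 2 with no mouse block and 8 to 42 without 1 mouse. The Ndn split had 2, against 1 under DESeq2, 11 with no filter, 0 on thinned wells, 10 with at least 2 counts, 0 with no mouse block and 0 to 7 without 1 mouse. Over the 5 fits of sex in marker-detected wells there were 19 calls, against 12 under DESeq2, 86 with no filter, 0 on thinned wells, 1 with at least 2 counts and 0 to 23 without 1 mouse. Of the 19, 17 came from the Gad1 fit; the other 4 fits had 2 calls, against 9 under DESeq2, 77 with no filter, 0 with at least 1000 genes per well, 0 on thinned wells, 1 with at least 2 counts and 0 to 6 without 1 mouse. The 5 interactions had 20, against 2 under DESeq2, 5 on thinned wells, 9 with at least 2 counts and 6 to 26 without 1 mouse. Without Gad1 the 4 other interactions had 12, against 0 under DESeq2 and 6 to 18 without 1 mouse. The Gad1 fits of sex and of the interaction could not be run on thinned wells, with at least 2 counts or without 1 of their mice, and that of sex not with the replicate block, so those totals cover 4 fits.

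No pairing of the mice by replicate number was seen, although so few values cannot exclude it. Same-numbered mice deviated with r = -0.12, -0.086 and 0.16, and mice of different numbers with r from -0.099 to 0.21. With the replicate block, the sex difference of Ndn was 1.44 (adjusted p = 0.543), and the 4 fits in marker-detected wells that could be run with it made 1 call, against 2 without it.

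None of the log2 fold changes that changed sign was called. In the Rprm comparison these were Peg3 at -0.39, Magel2 at -0.031 and Gnas at -0.014 with at least 2 counts. On thinned wells they were Impact at -0.53, Peg3 at -0.23, Snrpn at -0.080 and Gnas at -0.079. With no filter they were Gnas at -0.040, Snrpn at -0.033 and Peg3 at -0.020, and with no mouse block Peg3 at -0.013. In the Gad1 comparison these were Nap1l5 at -0.17 and Impact at -0.081 with at least 2 counts, and Nap1l5 at -0.16 and Ndn at -0.086 on thinned wells. With no filter they were Nap1l5 at -0.17, Impact at -0.16, Gnas at -0.042 and Ndn at -0.012. In the Sst comparison these were Nap1l5 at 0.012 with at least 2 counts, Nnat at -0.11 with no filter, and Ndn at -0.13, Snrpn at 0.0078 and Impact at 0.0059 on thinned wells. In the Pdyn comparison they were Gnas at 0.0095 with no filter and 0.042 on thinned wells, and in the Tac1 comparison Gnas at -0.020 with no filter and Ndn at 0.0010 with at least 2 counts. Between the sexes it was Impact at 0.051 with no filter. In the Ndn split they were Gnas at -0.016 under DESeq2, -0.00064 with RLE and -0.021 with at least 2 counts, Nnat at -0.031 with at least 2 counts and -0.035 on thinned wells, and Peg3 at 0.017 on thinned wells. The interactions of Ndn were -0.26 for Tac1 with at least 2 counts and -0.26 for Pdyn on thinned wells.

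Leaving out 1 mouse gave these ranges where a sign changed. Between the sexes they were -0.27 to 0.10 for Impact, -0.19 to 0.57 for Nap1l5, -0.0029 to 0.23 for Nnat and -0.013 to 0.67 for Gnas. For Tac1 they were -0.28 to 0.043 for Magel2 and -0.025 to 0.024 for Gnas. For Rprm they were -0.012 to 0.13 for Impact, -0.056 to 0.057 for Peg3, -0.013 to 0.043 for Snrpn and -0.0031 to 0.045 for Gnas. For Pdyn the range was -0.087 to 0.011 for Gnas, for Sst -0.067 to 0.011 for Snrpn and -0.050 to 0.081 for Nnat, and for Gad1 -0.17 to 0.29 for Impact. In the Ndn split they were -0.15 to 0.045 for Impact, -0.42 to 0.015 for Peg3, -0.039 to 0.14 for Nnat and -0.058 to 0.050 for Gnas. Without female 2, Nap1l5 and Snrpn became called beside Pdyn (0.19, adjusted p = 0.0489, and 0.18, 0.0229). Ndn became called beside Sst without male 2 (0.27, 0.0327), and its interaction of sex and Sst without female 1 (-0.58, 0.0434).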
